A study of Mus musculus with 4 samples.

Results

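Sele, Selp, Icam1, Vcam1, Edn1, Vwf, Pecam1, Cdh5 and Rbp7 are genes of the vessel lining that carry leukocyte adhesion, endothelial activation or endothelial identity. They were chosen by symbol, and all 9 were found among the 19465 genes listed for spatial sections of mouse heart. Each section was laid on a grid of capture spots (10x Genomics Visium), and each gene was counted in each spot as unique molecular identifiers (UMIs), which count captured molecules. The hearts came from wild type FVB/NJ mice that had all been immunized with a peptide of the cardiac myosin heavy chain MyHCα and given the immune checkpoint inhibitors (ICI) anti-PD-1 and anti-CTLA-4. The first group, of 2 sections, also received an IL-17A neutralizing antibody. The second group, of 2 sections, received the checkpoint inhibitors alone, and the labels record myocarditis in it and its mitigation in the antibody group. No heart without checkpoint inhibitors was analysed here, and age and sex are not given in the sources used here. The labels do not say whether the sections of a group came from separate animals, so the p-values below speak for these sections only. The test used below shares its estimate of spread across genes, so a p-value does not measure a single gene's spread between sections alone. The labels number the sections of each group as batch 1 and batch 2, and the sections are called replicate 1 and 2 by that number.

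Endothelial cells that meet inflammatory cytokines place adhesion proteins on their luminal surface. E-selectin (Sele) and P-selectin (Selp) slow leukocytes so that they roll, and ICAM-1 (Icam1) and VCAM-1 (Vcam1) bind leukocyte integrins so that they stop and cross. Endothelin-1 (Edn1) is a vasoconstrictor peptide made by endothelial cells and by other cells, von Willebrand factor (Vwf) is stored with P-selectin in endothelial granules and captures platelets, PECAM-1 (Pecam1) and VE-cadherin (Cdh5) hold endothelial junctions, and Rbp7 encodes a retinol-binding protein of capillary endothelium. Icam1 and Vcam1 are also made by leukocytes, fibroblasts and muscle cells, and Selp and Vwf by megakaryocytes.

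All 9 genes are protein-coding. On mouse build GRCm38.p6 Sele spans chr1:164039614-164058487 and Selp spans chr1:164115264-164150026, near each other, while the other 7 lie on 7 further chromosomes (Icam1 chr9:21015940-21028814, Vcam1 chr3:116110020-116129688, Edn1 chr13:42301476-42307990, Vwf chr6:125552948-125686679, Pecam1 chr11:106654213-106715281, Cdh5 chr8:104101613-104144504, Rbp7 chr4:149449687-149466462). The 250 bases before the annotated starts of the selectins are shown because these 2 genes carry the treatment difference described below. The sequences come from RefSeq (GRCm38.p6), whose promoter table held 5 of the 9 genes. The Sele window is chr1:164047984-164048233 on the plus strand, and its start lies inside the span given for the gene. The Selp window is chr1:164115014-164115263 on the plus strand. Capitals mark matches to TGANTCA, which is the AP-1 site TGA(C or G)TCA with any middle base allowed, and to TATAAA, the TATA box.
Sele: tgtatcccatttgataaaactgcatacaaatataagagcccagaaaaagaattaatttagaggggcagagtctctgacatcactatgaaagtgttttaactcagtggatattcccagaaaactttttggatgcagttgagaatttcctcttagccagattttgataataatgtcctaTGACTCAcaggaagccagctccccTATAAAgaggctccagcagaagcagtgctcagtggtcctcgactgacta
Selp: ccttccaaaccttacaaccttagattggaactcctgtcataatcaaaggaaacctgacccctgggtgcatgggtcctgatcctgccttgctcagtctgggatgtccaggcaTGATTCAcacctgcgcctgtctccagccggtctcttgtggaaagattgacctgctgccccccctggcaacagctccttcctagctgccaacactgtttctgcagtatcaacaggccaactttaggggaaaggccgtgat
The Sele window held TGACTCA at bases 73 to 67 before the start and TATAAA at bases 49 to 44, and the Selp window held TGATTCA at bases 139 to 133. Only the Sele match has C or G in the middle, so the Selp match is not the AP-1 site itself. TGANTCA reads the same on both strands, the motifs do not overlap here, and among all 32841 promoter windows of that length 6.75% held TGANTCA and 12.4% held TATAAA. Both motifs were chosen after these sequences had been read. A kappaB search used the letters GGRRNNYYCC, with R for A or G, N for any base and Y for C or T. It matched 9.55% of all windows and none of the 5 held for these genes. Stretches that depart from these letters, such as ggatattccc in the Sele window, were not counted. The search therefore does not show that these windows lack kappaB sites. A match is a description of letters, and no site was tested here.

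Tissue covered 2604 and 2585 spots in the antibody sections, with 47882576 and 33005923 UMIs, against 2503 and 3052 spots with 73167202 and 66255242 UMIs in the ICI-alone sections. Median depth per spot was 18342 and 12298 UMIs in the antibody sections and 27912 and 20622.5 UMIs in the ICI-alone sections, so shares of spots with a UMI are given after thinning each spot to 5000 UMIs. A spot holds several cells. It was called leukocyte-rich where its thinned count of 20 pan-leukocyte, T cell and myeloid genes reached the top 10% of all spots, sections weighted equally. That class held 201 and 58 spots in the antibody sections, against 234 and 555 in the ICI-alone sections (8.04 and 2.28% of classed spots, against 9.39 and 18.2%). Every gene of the cardiomyocyte list (10 measured) and of the endothelial identity list (17 measured, such as Cldn5, Kdr and Tie1) had UMIs in all 4 sections. At this depth having any UMI is a low bar, so this is no test of the tissue label. Antibody replicate 2 stood apart: it had the lowest depth, the fewest leukocyte-rich spots and the most spots at the tissue edge (229 and 609 in the antibody sections, against 423 and 423 in the ICI-alone sections), and 163 of its spots, and none of the other sections', gave over 1% of their UMIs to 4 atrial genes other than Nppa, a measure added after the data had been seen. With Nppa among the genes such spots numbered 2 and 172 in the antibody sections and 63 and 536 in the ICI-alone sections. Spot barcodes are grid positions, and 1670 of them occur in all 4 sections.

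**Figure D1:**
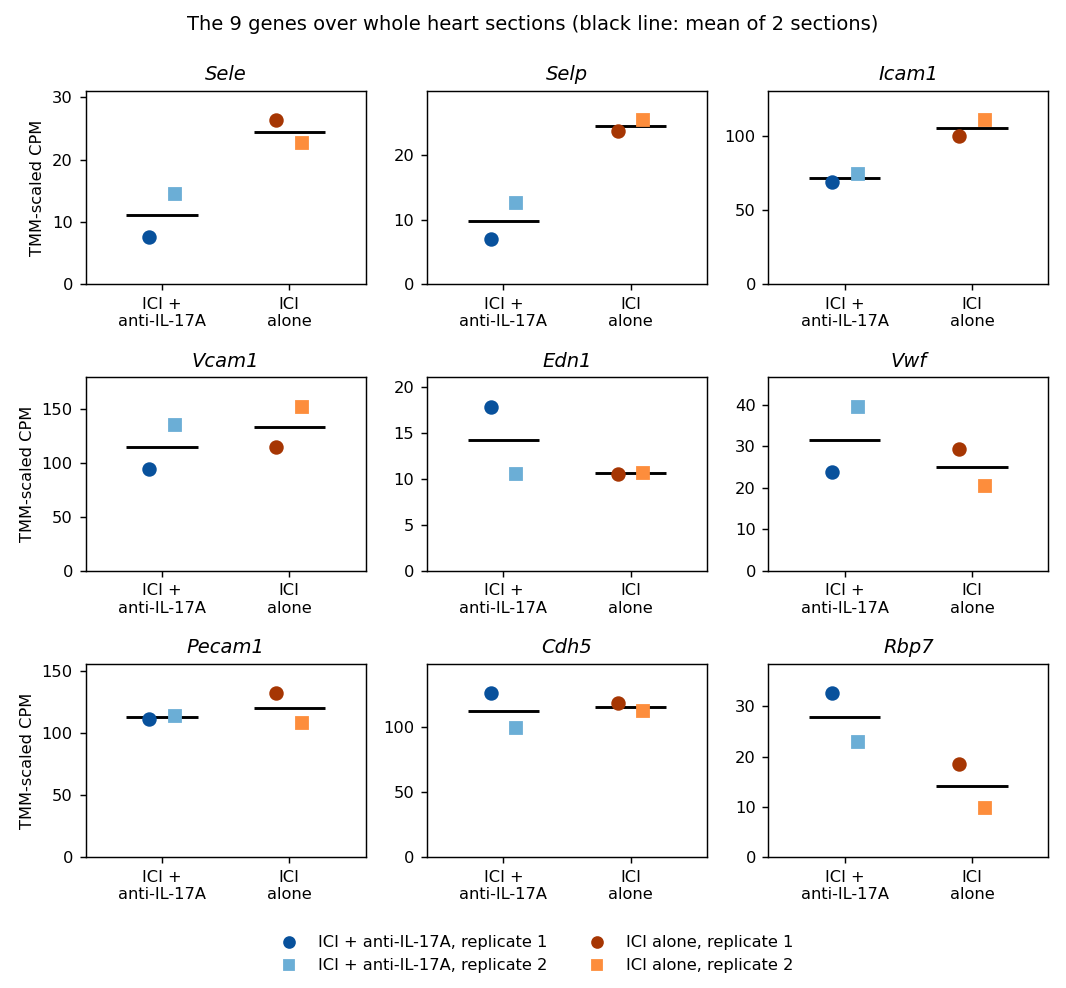
Normalised level of each of the 9 genes (y axis, TMM CPM) in each section, with antibody sections left of ICI-alone sections and the group mean as a black line. Both antibody sections lie below both ICI-alone sections for Sele, Selp and Icam1 and above them for Rbp7, while the groups overlap for the other 5 genes.

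Both selectins were lower with the IL-17A antibody. Levels here are a gene's UMIs over all UMIs of the section, in CPM, scaled between sections by the trimmed mean of M values (TMM), and they compare sections for 1 gene, not genes with each other. Sele was at 7.66 and 14.5 CPM in the antibody sections, against 26.3 and 22.7 CPM in the ICI-alone sections. Selp was at 6.97 and 12.6 CPM in the antibody sections, against 23.7 and 25.3 CPM in the ICI-alone sections. For both selectins every antibody section lay below every ICI-alone section, and replicate 1 was the lower of the antibody sections. With 2 sections per group such a separation arises easily, and its share over all genes was not counted, here or below. Sele averaged 11.1 ± 4.83 CPM with the antibody and 24.5 ± 2.56 CPM without it (SD, n = 2 each), a log2 fold change of -1.15 (SE 0.28, adjusted p = 0.0450 by edgeR's quasi-likelihood test with Benjamini-Hochberg adjustment over all genes). Selp averaged 9.80 ± 3.99 CPM with the antibody and 24.5 ± 1.12 CPM without it (SD, n = 2 each), a log2 fold change of -1.33 (SE 0.27, adjusted p = 0.0299). At an adjusted p under 0.05, the threshold used throughout, 11.8% of the 18817 genes tested differed between the groups (8.81% lower and 3.03% higher), and Sele and Selp were the 2 of 9 genes here that did. Within batch 1 the log2 ratio of antibody over ICI alone was -1.78 for Sele and -1.77 for Selp, and within batch 2 it was -0.65 for Sele and -1.004 for Selp.

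Both calls were lost without antibody replicate 1, at a log2 fold change of -0.76 for Sele and -0.96 for Selp. That fit called far fewer of all genes too, so the loss is not particular to the selectins. With all sections kept, neither selectin was called under a filter of 10 CPM. Sele also missed the threshold when every spot rich in atrial genes was left out (log2 fold change -1.09, adjusted p = 0.0632). With library size alone as the scaling, the median of all genes was 0.18 in place of 0.085 and 44.9% of the calls were higher in place of 25.6%, and Sele then stood at an adjusted p of 0.0506. In tissue spots, fewer endothelial cells and less RNA per cell cannot be told apart from a section's total alone.

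After thinning to 5000 UMIs, Sele was found in 3.40% (95% Wilson interval 2.76 to 4.19) and 6.95% (6.02 to 8.0) of spots in the antibody sections, against 10.1% (8.99 to 11.4) and 10.4% (9.37 to 11.5) in the ICI-alone sections. The intervals cover counting error only, and those of the antibody sections lie below those of the ICI-alone sections. Unthinned, the shares were 10.4 and 15.4% with the antibody and 37.0 and 31.9% without it. Selp was found in 3.16 and 6.04% of thinned spots with the antibody and in 8.63 and 11.3% without it. The single spot richest in Sele held 7 and 5 UMIs in the antibody sections, against 19 and 9 UMIs in the ICI-alone sections.

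Of the integrin ligands, Icam1 lay just outside the threshold and Vcam1 did not separate the groups. Icam1 was at 69.4 and 74.8 CPM in the antibody sections, against 100.4 and 111 CPM in the ICI-alone sections. The 4 sections fall into their groups without overlap, at a log2 fold change of -0.55 (SE 0.15, adjusted p = 0.0529), and with the batch as a block the adjusted p was 0.0326. Icam1 was found in 21.1 and 27.1% of thinned spots with the antibody, against 29.6 and 34.7% without it. Vcam1 was at 94.3 and 135 CPM with the antibody, against 114 and 152 CPM without it, so the groups overlapped (log2 fold change -0.22, adjusted p = 0.504).

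Edn1, the gene of the vasoconstrictor endothelin-1, was at 17.8 and 10.5 CPM in the antibody sections, against 10.6 and 10.6 CPM in the ICI-alone sections. Only antibody replicate 1 stood above the rest, and the difference did not pass (log2 fold change 0.42, adjusted p = 0.255). Vwf, the platelet-capturing multimer, was at 23.7 and 39.4 CPM with the antibody, against 29.3 and 20.5 CPM without it, with the groups overlapping (log2 fold change 0.34, adjusted p = 0.376). Its within-batch ratios had opposite signs, at -0.31 in batch 1 and 0.95 in batch 2.

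The junction genes were near level between the groups. Pecam1 was at 112 and 114 CPM with the antibody, against 132 and 108 CPM without it, and Cdh5 was at 126 and 98.9 CPM with the antibody, against 119 and 112 CPM without it. The log2 fold changes were -0.09 for Pecam1 (adjusted p = 0.705) and -0.04 for Cdh5 (adjusted p = 0.888), and a p that misses the threshold does not show that the levels were equal. Rbp7, the capillary retinol-binding protein gene, ran the other way from the selectins. It was at 32.6 and 23.0 CPM with the antibody, against 18.5 and 9.75 CPM without it, and replicate 2 was the lower section in both groups. The groups did not overlap and the difference missed the threshold (log2 fold change 0.98, SE 0.31, adjusted p = 0.0773), while with the batch as a block it passed (1.02, adjusted p = 0.0159).

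Summed Pecam1 and Cdh5 made up 238 and 227 CPM in the antibody sections, against 229 and 226 CPM in the ICI-alone sections, before TMM scaling. The antibody sections also carried lower leukocyte-panel and fibroblast levels, so the genes were set against these junction transcripts as a measure of endothelial RNA. Per 1000 Pecam1 and Cdh5 UMIs there were 32.3 and 68.1 Sele UMIs with the antibody, against 105 and 103 without it. There were 29.4 and 59.3 Selp UMIs with the antibody, against 94.5 and 115 without it. For Rbp7 there were 137 and 108 UMIs with the antibody, against 73.8 and 44.3 without it. On this scale too each of these 3 genes separated the groups without overlap, as did Icam1 and Edn1. The share of all genes that did so was not counted on this scale either. The separation by itself therefore does not set these genes apart from others. With the library size set to Pecam1 plus Cdh5, 9.76% of 18817 genes differed (3.87% higher and 5.89% lower), and Sele (log2 fold change -1.06, SE 0.29, adjusted p = 0.0431) and Selp (-1.25, SE 0.29, adjusted p = 0.0242) stayed lower while Rbp7 was higher (1.05, SE 0.25, adjusted p = 0.0249). The median of all genes was 0.150 on this scale and 0.085 on the TMM scale. With the endothelial identity list as the denominator 15.4% of the calls were higher, against 39.6% with Pecam1 plus Cdh5, and the median of all genes was -0.066. That setting called 3669 genes. Sele (-1.29, adjusted p = 0.00583), Selp (-1.48, adjusted p = 0.00319) and Icam1 (-0.71, adjusted p = 0.0174) were lower in it, and Rbp7 was higher (0.85, adjusted p = 0.0274). Without antibody replicate 1 Sele (-0.61, adjusted p = 0.177) and Selp (-0.82, adjusted p = 0.0548) were no longer called per endothelial transcript. Sele also missed the threshold on this scale without atrial-rich spots (adjusted p = 0.0505, or 0.0510 with Nppa left out of their definition) and with a filter of 10 CPM (adjusted p = 0.0619). The other ratios overlapped or did not pass: Icam1 stood at 292 and 351 per 1000 with the antibody, against 400.2 and 503 without it (log2 fold change -0.49, adjusted p = 0.110, with the batch as a block 0.0435), Vcam1 at 397 and 633 with the antibody, against 456 and 690 without it, Edn1 at 75.0 and 49.4 with the antibody, against 42.1 and 48.3 without it, and Vwf at 99.9 and 185 with the antibody, against 117 and 93.0 without it.

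Genes related to these members were counted by list in the same whole-section test, beside a median log2 fold change of 0.085 over all genes, of which 8.81% were lower and 3.03% higher. A single call in a list of 8 to 17 genes is therefore given as that gene's value and not as a result about the list. Endothelial identity genes (17 tested) had a median of 0.31, with 1 higher (Tie1, the endothelial receptor tyrosine kinase, at 32.0 and 32.9 CPM with the antibody, against 20.4 and 17.2 CPM without it, adjusted p = 0.0264) and none lower. Of 10 genes of venous and activated endothelium 2 were lower, with a median of -0.22: Lrg1, an inflammation-induced glycoprotein of venules, was at 103 and 173 CPM with the antibody, against 543 and 289 CPM without it (log2 fold change -1.59, adjusted p = 0.0391), and Plvap, of the diaphragms of permeable vessels, stood at -1.12 on the log2 scale (adjusted p = 0.0401). Of 9 arterial genes Dll4 was higher (0.63, adjusted p = 0.0369) and Fbln5 lower (-0.53, adjusted p = 0.0495). Of 9 capillary lipid-transport genes Aqp7 was higher (2.04, adjusted p = 0.0321) and Fabp5 lower (-1.15, adjusted p = 0.0381). Of 14 other adhesion and junction genes Icam2, a constitutive endothelial integrin ligand, was higher (0.54, adjusted p = 0.0464) and Alcam lower (-1.12, adjusted p = 0.0319).

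Of 16 genes for the leukocyte receptors that bind these adhesion proteins 5 were lower, none was higher and 11 did not pass, with a median of -0.63. Selplg, which encodes the selectin ligand PSGL-1, was at 80.5 and 82.6 CPM with the antibody, against 137 and 157 CPM without it (log2 fold change -0.85, adjusted p = 0.0262). Itgam, the integrin chain that binds ICAM-1 on myeloid cells, stood at -1.76 on the log2 scale (adjusted p = 0.0225). Of 18 NF-kB target genes 4 were lower and none higher, with a median of -0.29. Among them Cxcl1, a neutrophil chemokine, was at 17.8 and 25.2 CPM with the antibody, against 111 and 163 CPM without it (log2 fold change -2.68, adjusted p = 0.0175). Of 19 genes for cytokines that activate endothelium and their receptors 5 were lower, Il6 (-2.21, adjusted p = 0.0225), Il1r1 (-1.23, adjusted p = 0.0240) and Il33 (-1.30, adjusted p = 0.0249) among them, and Ifng was higher (1.07, adjusted p = 0.0219). Of 8 endothelin-system genes 1 was lower, the receptor gene Ednrb (-0.62, adjusted p = 0.0440). Of 14 anticoagulant and flow-responsive genes 3 were lower. Of 11 retinoid genes tested beside Rbp7, 3 were lower and none higher, and of 10 platelet genes Pf4 was lower (-1.41, adjusted p = 0.0217).

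Other cell types moved with the groups. Lower with the antibody were 12 of 20 leukocyte-panel genes, 8 of 12 macrophage genes (median -0.995), 6 of 10 neutrophil genes (median -2.45) and 8 of 11 fibroblast genes (median -1.64), while no gene of the T cell list (10) passed. Higher were 3 of 8 pericyte genes (median 0.74; Rgs5 at 0.97, adjusted p = 0.0273) and 5 of 7 mesothelial genes (median 1.62), and none of 10 cardiomyocyte genes passed (median 0.75). The part of these shifts in the selectin, Icam1 and Rbp7 differences was not tested.

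**Figure D2:**
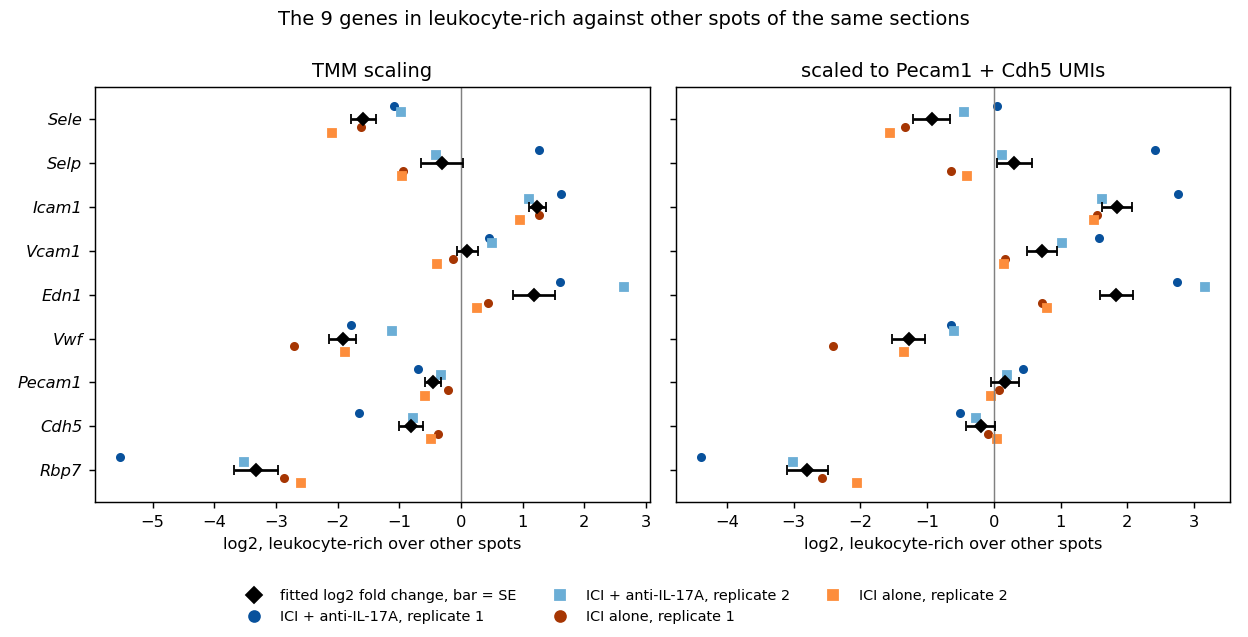
Log2 ratio of the level in leukocyte-rich spots over that in other spots (x axis) for each gene (rows), with TMM scaling in the left panel and scaled to Pecam1 and Cdh5 UMIs in the right, 1 coloured point per section, antibody sections above ICI-alone sections, and the fitted log2 fold change with its SE as a diamond with a bar. With TMM scaling Icam1 lies right of 0 and Sele, Vwf and Rbp7 lie left of 0 in all 4 sections, and Edn1 lies farther right in the antibody sections.

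Inside each section the same genes split by position. In leukocyte-rich spots, set against the other spots of the same section, Icam1 was at 186 and 164 CPM in the antibody sections and 222 and 191 CPM in the ICI-alone sections. In the other spots it was at 60.2 and 76.4 CPM with the antibody and 92.6 and 98.2 CPM without it, so every section had more Icam1 in its leukocyte-rich spots (log2 fold change 1.24, SE 0.14, adjusted p = 8.57e-05). Leukocytes themselves express Icam1, and the part of that in this difference was not tested. Of 18352 genes tested 45.8% differed between the classes (21.4% higher and 24.4% lower in leukocyte-rich spots), so a call by itself sets a gene apart from few others. With library size alone 68.4% of the calls were higher in leukocyte-rich spots, against 46.8% with TMM, and the median of all genes was 0.50 in place of 0.17.

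Sele was low where leukocytes were dense. It was at 4.28 and 8.11 CPM in leukocyte-rich spots of the antibody sections and at 10.3 and 7.30 CPM in those of the ICI-alone sections, against 9.10 and 15.9 CPM with the antibody and 31.7 and 31.1 CPM without it in the other spots. The log2 fold change was -1.58 (SE 0.20, adjusted p = 0.000178), and with the class widened to 20% of spots it was -0.51 and no longer called (adjusted p = 0.152). Selp, its partner in rolling, was at 15.7 and 10.3 CPM in leukocyte-rich spots with the antibody and 14.6 and 16.5 CPM without it, against 6.50 and 13.6 CPM with the antibody and 27.8 and 31.8 CPM without it in other spots. Antibody replicate 1 alone had more Selp in its leukocyte-rich spots, and the difference was -0.31 (adjusted p = 0.466) with that section and -0.87 (adjusted p = 0.00063) without it. Vcam1 did not pass (0.11, adjusted p = 0.619), and its direction depended on the class: it was lower at 5% of spots (-0.44, adjusted p = 0.0375) and higher at 20% (0.52, adjusted p = 0.0450).

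Of the 9 genes, Rbp7 and Vwf had the lowest log2 fold changes in leukocyte-rich spots. Vwf was at 8.03 and 19.9 CPM there with the antibody and 5.58 and 7.49 CPM without it, against 27.5 and 43.0 CPM with the antibody and 36.3 and 27.7 CPM without it in other spots (log2 fold change -1.92, SE 0.22, adjusted p = 8.45e-05). Rbp7 was at 0.892 and 2.21 CPM there with the antibody and 3.16 and 2.27 CPM without it, against 41.1 and 25.5 CPM with the antibody and 23.0 and 13.7 CPM without it in other spots (-3.33, SE 0.35, adjusted p = 6.16e-05). Its counts there were small, at 5 and 3 UMIs in the antibody sections and 26 and 36 UMIs in the ICI-alone sections. Pecam1 (-0.46, adjusted p = 0.0159) and Cdh5 (-0.81, adjusted p = 0.00857) were lower as well, Pecam1 losing its call without ICI-alone replicate 2 (-0.40, adjusted p = 0.0544). With library size alone Pecam1 stood at -0.13 and was not called. In the same test 14 of 17 endothelial identity genes, 7 of 8 pericyte genes and all 10 cardiomyocyte genes were lower in leukocyte-rich spots, and 16 of 18 NF-kB targets were higher (median 0.98).

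The make-up of the Pecam1 and Cdh5 scale differed between spot classes. Of each 1000 such UMIs in leukocyte-rich spots, Pecam1 gave 621 and 612 with the antibody, against 459 and 533 in other spots. Without the antibody it gave 552 and 477, against 524 and 494. Whether cells other than endothelium add Pecam1 in leukocyte-rich spots was not tested. Per Pecam1 and Cdh5 UMI, 61.4% of genes differed between the classes (50.4% higher in leukocyte-rich spots) and the median of all genes was 0.79 in place of 0.17, so values here are read against that median. Icam1 (1.85) and Edn1 (1.84) lay above it. Vcam1 was called higher (0.72, adjusted p = 0.00326) yet lay below the median of all genes, and the call was lost without antibody replicate 1 (0.43, adjusted p = 0.0533) or antibody replicate 2 (0.62, adjusted p = 0.0711). Sele (-0.93, adjusted p = 0.00218), Vwf (-1.27) and Rbp7 (-2.80) were called lower per endothelial transcript too. Against 0, the lower Sele level rests on 3 sections. In antibody replicate 1 the log2 ratio of leukocyte-rich over other spots was 0.048 on this scale, still under the fitted median of 0.79. Sele lost its call without ICI-alone replicate 1 (-0.74) or ICI-alone replicate 2 (-0.64). With the class at 20% of spots its sign turned (0.085, adjusted p = 0.826), where the median of all genes was 0.775. Selp was at 0.30 (adjusted p = 0.300) and, without antibody replicate 1, at -0.43 (adjusted p = 0.0488).

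Edn1 was the only 1 of the 9 genes whose treatment difference was called to differ between the spot classes in the reported setting. Selp (1.67, adjusted p = 0.0543) and Rbp7 (-2.28, adjusted p = 0.0600) lay just outside the threshold in that edgeR interaction test. In leukocyte-rich spots Edn1 was at 58.2 and 67.0 CPM in the antibody sections, against 15.1 and 14.8 CPM in the ICI-alone sections. The scaling was fitted to those spots alone. Both antibody sections stood far above both ICI-alone sections, and the ICI-alone sections were nearly equal. The log2 fold change was 2.05 (SE 0.16, adjusted p = 0.0179), and within batches it was 1.95 and 2.18. Of the 13324 genes tested in these spots 3.63% differed (1.97% higher and 1.67% lower), and Edn1 was the only 1 of the 9 called. These levels rest on 265 and 79 UMIs in the antibody sections and on 123 and 212 UMIs in the ICI-alone sections. Edn1 was seen in 118 of 201 and 26 of 58 leukocyte-rich spots with the antibody, against 75 of 234 and 153 of 555 without it, and after thinning in 23.4 and 20.7% with the antibody, against 5.98 and 7.03% without it. Per 1000 Pecam1 and Cdh5 UMIs of these spots there were 371 and 361 Edn1 UMIs with the antibody, against 64.6 and 73.6 without it. The scale itself was not level in these spots, with Cdh5 at -0.70 (adjusted p = 0.0507) and Pecam1 at -0.10 (adjusted p = 0.772). Its part in this ratio was not tested.

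Outside the leukocyte-rich spots Edn1 was at 13.9 and 8.51 CPM in the antibody sections, against 9.72 and 9.77 CPM in the ICI-alone sections, with overlap. The difference between the treatment effects in the 2 spot classes was 1.69 on the log2 scale (SE 0.30, adjusted p = 0.0260 for the interaction), where 1.08% of 18352 genes had an interaction (0.703% positive and 0.381% negative). That call was lost without ICI-alone replicate 1 (1.80, adjusted p = 0.224) and without ICI-alone replicate 2 (1.71, adjusted p = 0.429), settings that left 0 and 7 genes called by edgeR, with 1785 and 1238 genes at an unadjusted p under 0.05. The treatment call in leukocyte-rich spots was lost with the class at 20% of spots (1.44, adjusted p = 0.0519) and with spots thinned to 2000 UMIs (1.85, adjusted p = 0.0525). Over both groups Edn1 was higher in leukocyte-rich than in other spots (1.19, SE 0.34, adjusted p = 0.0177), a call lost without antibody replicate 1 (0.98, adjusted p = 0.0525) or antibody replicate 2 (0.76, adjusted p = 0.0528).

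Marker genes in the leukocyte-rich spots differed between the groups. Summed T cell genes there were at 479 and 533 CPM in the antibody sections, against 204 and 165 CPM in the ICI-alone sections. Of these 10 genes 5 were called higher. Of 12 macrophage genes 5 were lower, of 8 neutrophil genes tested 3 were lower, and of 17 activating cytokine and receptor genes tested 5 were higher. Most genes of the T cell list and some of the macrophage list belong to the panel that chose these spots. They were kept in this test, so their differences are not independent of that choice. The part of these marker differences in the Edn1 difference was not tested. Among the other members in these spots, Cdh5 was at 59.5 and 72.1 CPM with the antibody, against 105 and 105 CPM without it (log2 fold change -0.70, adjusted p = 0.0507). Vcam1 was at 166 and 232 CPM with the antibody, against 118 and 151 CPM without it (0.55, adjusted p = 0.149, and 0.77 at an adjusted p of 0.0426 without antibody replicate 1). The groups overlapped for Sele (5.27 and 9.33 CPM with the antibody, 10.4 and 8.08 CPM without it), for Selp (19.3 and 11.9 CPM with the antibody, 14.7 and 18.2 CPM without it) and for Icam1 (229 and 189 CPM with the antibody, 224 and 211 CPM without it).

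Leukocyte-rich spots formed patches, taken as at least 10 adjacent spots, a size chosen after the maps had been seen. The antibody sections held 2 and 1 patches and the ICI-alone sections 3 and 11. In antibody replicate 1 Edn1 was at 38.1 CPM (102 spots, 75 UMIs) in the larger patch and at 98.0 CPM (72 spots, 170 UMIs) in the smaller, and in antibody replicate 2 it was at 120.1 CPM (19 spots, 50 UMIs), all relative to library size alone. The 14 ICI-alone patches ran from 0 to 35.0 CPM with a median of 10.99 CPM. Every antibody patch thus lay above every ICI-alone patch, and patches of a section are not replicates.

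**Figure D3:**
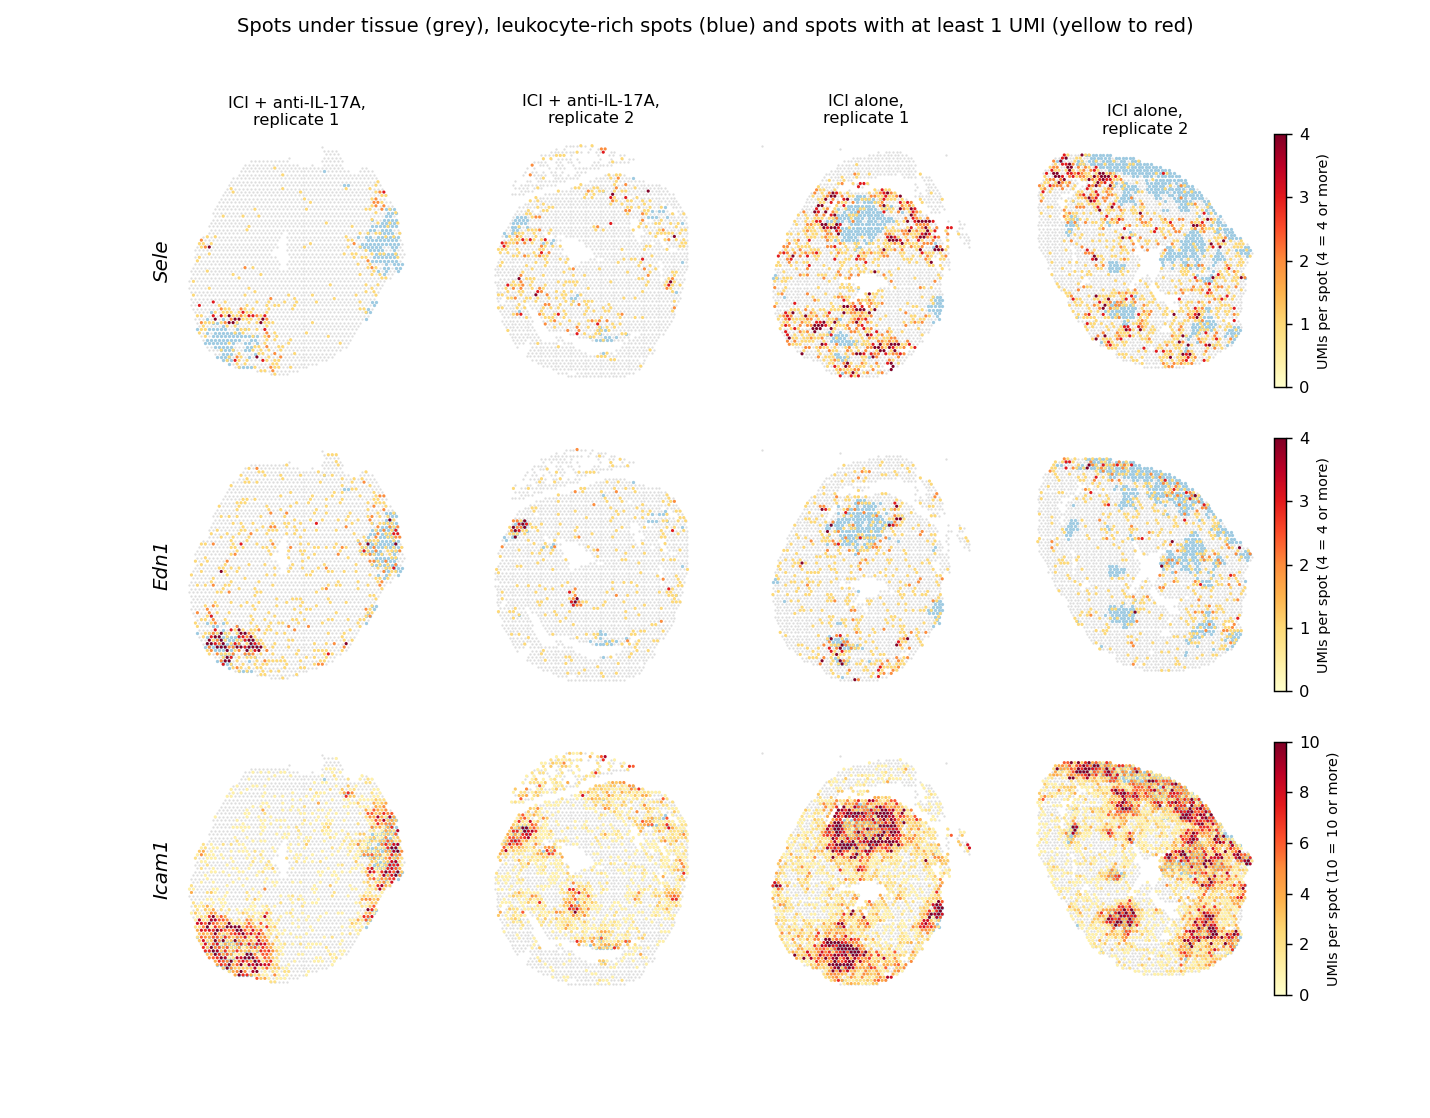
Spot maps of the 4 sections (columns, antibody sections left) for Sele, Edn1 and Icam1 (rows), with tissue spots in grey, leukocyte-rich spots in blue and UMIs per spot in colour, capped at 4, 4 and 10 UMIs. Edn1 gathers on leukocyte-rich patches of the antibody sections and on 1 patch of ICI-alone replicate 1, Icam1 covers the patches of every section, and Sele lies around them.

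Outside the leukocyte-rich spots the selectins kept their treatment difference. Sele was at 8.11 and 14.6 CPM in the antibody sections, against 27.9 and 27.3 CPM in the ICI-alone sections (log2 fold change -1.29, SE 0.26, adjusted p = 0.0356). Selp was at 5.79 and 12.5 CPM with the antibody, against 24.4 and 27.96 CPM without it (-1.52, SE 0.33, adjusted p = 0.0399). Neither pair of groups overlapped, and 8.06% of 18192 genes differed in these spots (1.78% higher and 6.28% lower), the 2 selectins alone among the 9. Both calls were lost without antibody replicate 1 (-0.97 for Sele and -1.12 for Selp) and without antibody replicate 2 (-1.77 and -2.18). In both of these fits edgeR called few or no genes at all, so the loss is not particular to the selectins. Icam1 (-0.44, adjusted p = 0.130) and Rbp7 (0.90, adjusted p = 0.0928) did not pass, and with the batch as a block they did (adjusted p = 0.0402 and 0.00537). The treatment difference of Sele and Selp was not shown to depend on the spot class: the interaction was 0.82 for Sele (adjusted p = 0.266) and 1.67 for Selp (adjusted p = 0.0543), and for Rbp7 it was -2.28 (adjusted p = 0.0600).

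**Figure D4:**
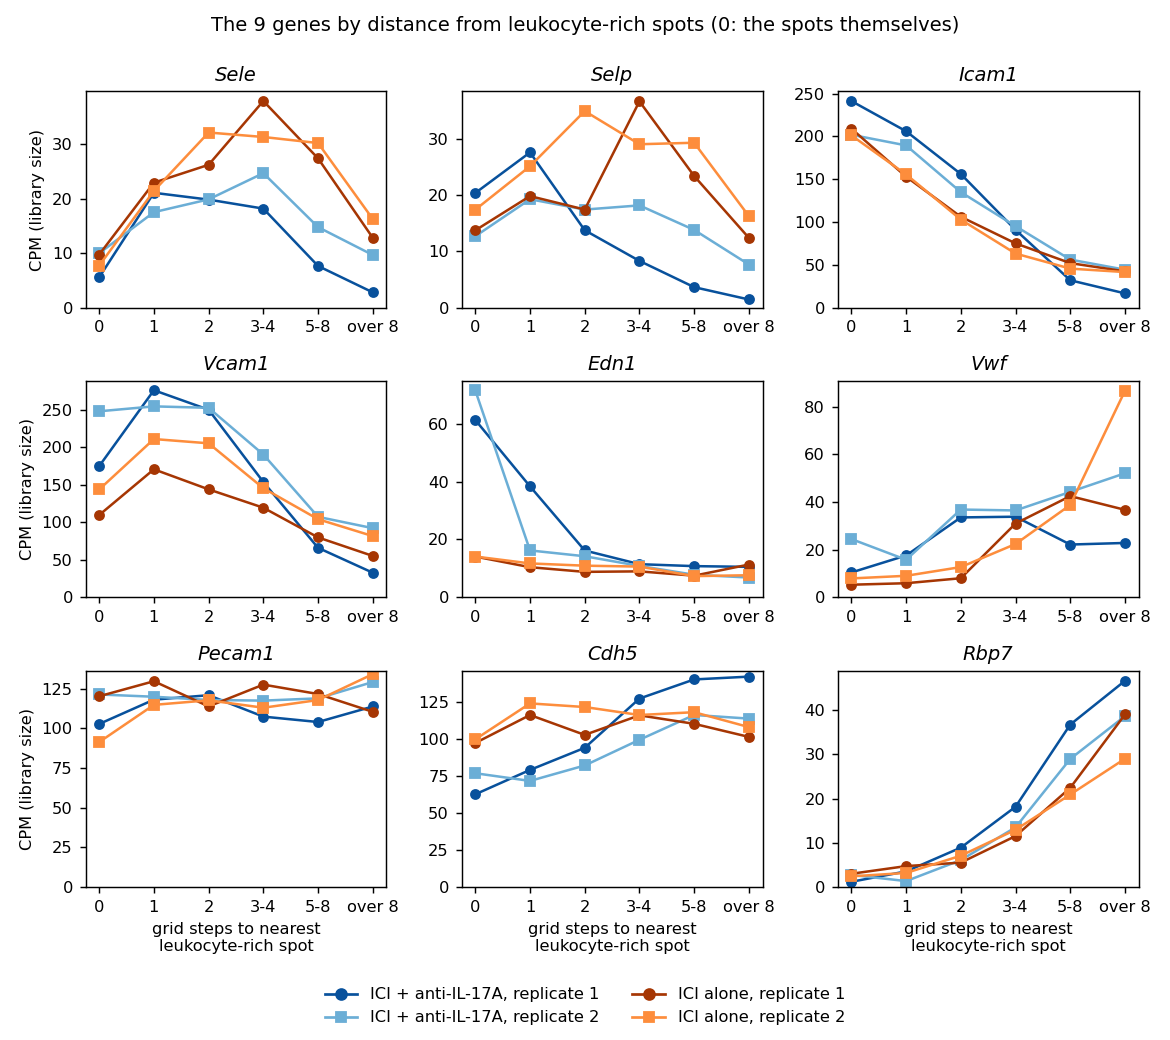
Level of each of the 9 genes (y axis, CPM of library size) by steps on the grid from the nearest leukocyte-rich spot (x axis), 1 line per section. Icam1 falls outward in every section, Sele is low at step 0 and over 8 steps and higher between, and Rbp7 is lowest near step 0.

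Distance from the leukocyte-rich spots orders these genes. The rings that follow are sums over spots at a given number of grid steps, in CPM of library size, and are given without a test. Icam1 was highest in the leukocyte-rich spots themselves, at 241 and 202 CPM with the antibody and 209 and 201 CPM without it, and beyond 8 steps it was at 16.6 and 44.2 CPM with the antibody and 42.3 and 41.5 CPM without it. Vcam1 peaked 1 step out in all 4 sections, at 276 and 255 CPM with the antibody and 171 and 211 CPM without it. Sele was low in the core, at 5.55 and 9.96 CPM with the antibody and 9.72 and 7.70 CPM without it. It was highest 1 step out in antibody replicate 1 (21.1 CPM), at 2 steps in ICI-alone replicate 2 (32.1 CPM) and at 3 to 4 steps in antibody replicate 2 (24.7 CPM) and ICI-alone replicate 1 (37.9 CPM). Beyond 8 steps it was at 2.79 and 9.64 CPM with the antibody and at 12.8 and 16.2 CPM without it, so a band of higher Sele ringed the core in every section.

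Selp in antibody replicate 1 went with the core, at 20.4 CPM there, 27.6 CPM 1 step out and 1.44 CPM beyond 8 steps, while in ICI-alone replicate 1 it was highest at 3 to 4 steps (36.6 CPM). Edn1 in the antibody sections dropped within a few steps, from 61.3 CPM in the core to 38.3, 16.2 and 11.4 CPM at 1, 2 and 3 to 4 steps in replicate 1 and from 71.5 CPM to 16.2, 14.2 and 10.8 CPM in replicate 2. In the ICI-alone sections it was at 14.1 CPM in both cores and between 7.30 and 11.7 CPM outside them. Rbp7 was at 1.16 and 2.72 CPM in the cores of the antibody sections and 2.97 and 2.39 CPM in those of the ICI-alone sections, and beyond 8 steps it was at 46.7 and 38.7 CPM with the antibody and 39.1 and 29.0 CPM without it. The ring beyond 8 steps holds 1303 and 823 spots in the antibody sections and 520 and 197 in the ICI-alone sections, so a whole-section total mixes the rings in other proportions in each section.

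Spots rich in smooth muscle, where 8 contractile genes reached the top 5% of spots, stand over muscular vessels and any other smooth muscle. Vwf was at 41.1 and 63.6 CPM in them in the antibody sections and at 40.3 and 26.4 CPM in the ICI-alone sections, against 22.3 and 39.2 CPM with the antibody and 27.9 and 19.8 CPM without it in the other spots. It was higher there in all 4 sections (log2 fold change 0.62, SE 0.10, adjusted p = 0.000775), where 6.65% of 15962 genes differed (3.10% higher and 3.55% lower). Edn1 was higher there in both ICI-alone sections and in antibody replicate 2, at 17.0 and 15.3 CPM with the antibody and 26.2 and 19.8 CPM without it, against 18.2 and 10.6 CPM with the antibody and 9.55 and 9.98 CPM without it in other spots. Its log2 fold change was 0.80 (SE 0.19, adjusted p = 0.0149), and the call was lost without ICI-alone replicate 1 (0.43, adjusted p = 0.209), with the class at 10% of spots (0.53, adjusted p = 0.149) and with a filter of 10 CPM (adjusted p = 0.0537). Icam1 was lower in these spots in every section, at 46.1 and 58.7 CPM with the antibody and 89.2 and 94.7 CPM without it, against 71.6 and 77.9 CPM with the antibody and 97.8 and 109.9 CPM without it in other spots (-0.32, SE 0.09, adjusted p = 0.0494), and that call was lost without antibody replicate 1 (adjusted p = 0.209) or antibody replicate 2 (adjusted p = 0.113), with library size alone (adjusted p = 0.0562) and with the filter of 10 CPM (adjusted p = 0.0708). In the same test 9 of 9 arterial genes, 5 of 17 endothelial identity genes and 4 of 4 atrial genes tested were higher and 11 of 20 leukocyte-panel genes lower, and the part of these in the 3 calls was not tested.

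**Figure D5:**
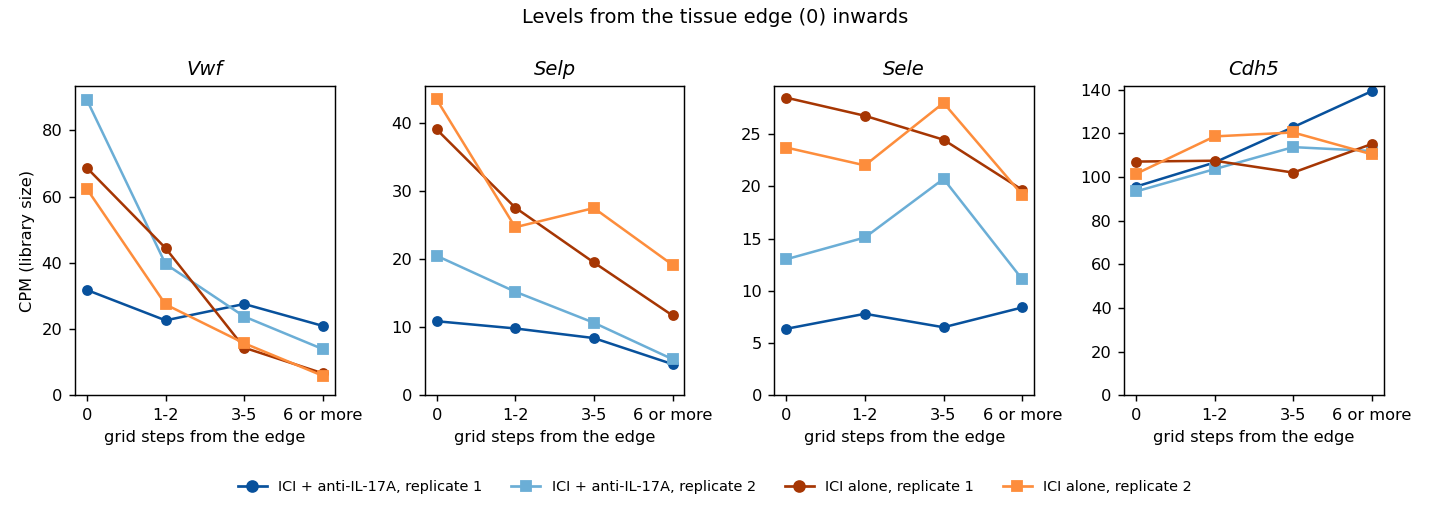
Level of Vwf, Selp, Sele and Cdh5 (y axis, CPM of library size) by layer inward from the tissue edge (x axis: 0, 1 to 2, 3 to 5, and 6 or more grid steps), 1 line per section. Vwf and Selp are highest at the edge in all 4 sections, Sele only in ICI-alone replicate 1, and Cdh5 in none.

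At the tissue edge, taken as spots with fewer than 6 neighbours under tissue, the 2 granule genes stood out. Vwf was at 30.3 and 84.0 CPM in edge spots of the antibody sections and at 69.1 and 57.9 CPM in those of the ICI-alone sections, against 24.5 and 28.3 CPM with the antibody and 21.7 and 16.5 CPM without it in the interior (log2 fold change 1.41, SE 0.20, adjusted p = 0.0135). Selp was at 10.4 and 19.3 CPM in edge spots with the antibody and 39.3 and 40.3 CPM without it, against 7.07 and 11.4 CPM with the antibody and 20.5 and 24.7 CPM without it in the interior (0.77, SE 0.09, adjusted p = 0.00553). Both were higher at the edge in all 4 sections, and 2.14% of 16006 genes differed there (1.32% higher and 0.818% lower). With library size alone 94.6% of the calls were higher at the edge, against 61.7% with TMM. Without ICI-alone replicate 2, 73 genes were called and Vwf stood at 1.26 (adjusted p = 0.0545). Counting each edge spot's neighbours as edge too left 12 genes called, with Vwf at 1.37 (adjusted p = 0.161) and Selp at 0.75 (adjusted p = 0.0805). The outer surface, chamber walls and tears all count as edge here.

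Layer by layer Vwf was at 31.8, 22.6, 27.6 and 20.9 CPM of library size from the edge inward in antibody replicate 1 and at 89.2, 39.6, 23.8 and 13.9 CPM in antibody replicate 2. It was at 68.7, 44.4, 14.4 and 6.61 CPM in ICI-alone replicate 1 and at 62.3, 27.4, 15.7 and 5.86 CPM in ICI-alone replicate 2, so the slope was steep in 3 sections and shallow in antibody replicate 1. Of 7 mesothelial genes 6 were higher at the edge (median 3.50), as were 3 of 6 endocardial genes (median 1.13), 2 of 10 venous genes and 2 of 5 atrial genes, and none of 10 platelet genes. The part of these cell types in the Vwf and Selp difference was not tested.

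Each member was also set beside all genes of at least 10 CPM (9392) by the correlation of log2(CPM + 1) over tiles of 12 array rows by 24 array columns, with 21 and 28 tiles in the antibody sections and 24 and 28 in the ICI-alone sections. These means over the 4 sections are descriptions without a test, and the tiles of a section share its library and depth. The genes most like Sele were Shroom3 (0.78), Serpina3n and Aldh1a2, and the genes most like Selp were Sele (0.74), Il1r1 and Il33. Icam1 went with Tlr2 (0.96), Rrbp1 and Cd44, Vcam1 with Arf4 (0.90), Eef1a1 and Morf4l2, and Rbp7 with Kcnip2 (0.92), Asb14 and Gpcpd1. Among the genes most like Vwf were Npr3 (0.74) and Igfbp4 (0.72). Most of these neighbours changed with the tile size: of the 3 nearest genes, tiles of 8 by 16 returned 0 for Icam1 and Edn1, 1 for Sele, Vcam1, Pecam1 and Cdh5, and 2 for Selp and Rbp7. Edn1 was less like any gene, with Ruvbl2 (0.64), Ehd1 and Rassf1 ahead, and so were Pecam1 (Prkag2 0.49, S1pr1 and Clu) and Cdh5 (Ehd2 0.50, Rapgef3 and Steap4). Among the members Icam1 and Vcam1 had a mean correlation of 0.86, Icam1 and Rbp7 of -0.81, and Pecam1 and Cdh5, the pair used as the endothelial scale, of 0.32.

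In the authors' deposited table of spatial autocorrelation, Moran's I of Icam1 was 0.569 and 0.297 in the antibody sections and 0.445 and 0.410 in the ICI-alone sections. In the authors' deposited table Edn1 stood at 0.198 and 0.100 with the antibody and at 0.0707 and 0.0594 without it, so its patterning was stronger in both antibody sections. The authors' deposited table gave Sele 0.216 and 0.121 with the antibody and 0.258 and 0.188 without it, and Cdh5 0.141 and 0.0527 with the antibody and 0.0459 and 0.0372 without it. The authors' deposited table has a median over all genes of 0.0179 and 0.00869 in the antibody sections and 0.0180 and 0.0155 in the ICI-alone sections, and every member lay above it in every section. Depth was higher in the ICI-alone sections too, and its part in Moran's I was not tested.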

How the data were processed

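Heart sections (FFPE, 5 µm) had been read by Space Ranger 2.1.0, per the file headers, and the submitters' processing notes name mm10 and Seurat 5.1.0 without a role. Which probes were used is unknown here. The authors deposited UMI counts per gene and spot, and, per gene, a score (Moran's I) with its adjusted p-value, both copied as deposited. The 9 genes and the gene lists were chosen with earlier results of these data known. Counts were summed per section, or per section and spot class, and tested with edgeR 4.0.16 (quasi-likelihood F test, TMM, filterByExpr, Benjamini-Hochberg over all genes tested, R 4.3.3). Comparisons of spot classes carried the section as a block and left out the genes that defined the class. Treatment tests within a spot class kept those genes. The standard error is the log2 fold change over the square root of F. The labels call the number shared by sections of both groups a batch, without saying of what. The main treatment tests left it out, and an alternative took it as a block. The batch 1 minus batch 2 differences of the groups correlated at 0.175 across 18817 genes. On simulated data 65.8% of genes changed 2-fold and 12.5% of those changed 1.5-fold were recovered in the whole-section test. The simulation gave every gene the same relative spread between sections, so these shares are not the recovery rate for the 9 genes. Spots under 5000 UMIs (105 and 37 in the antibody sections, 11 and 4 in the ICI-alone sections) joined no class. Named list genes are the up to 4 with the smallest p of each list, and likeness names the 3 genes of highest mean correlation. Alternatives were other scalings and filters, DESeq2 1.42.0, other class sizes and thinning depths, the batch as a block, and leaving out each section, atrial-rich spots (a second version of which was added after seeing the data) or spots under 1000 UMIs. Rows that share a symbol (11) were kept apart. Values of some single genes are not reported here.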

Additional observations from a re-analysis of the deposited data

Results flagged for a closer look

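The treatment difference of Edn1 in leukocyte-rich spots exceeded that in other spots by 1.69 on the log2 scale (SE 0.30, adjusted p = 0.0260, edgeR interaction term). In the reported setting the other 8 of the 9 genes were not called, with Selp at an adjusted p of 0.0543 and Rbp7 at 0.0600, and up to 5 of the 9 were called in other settings (without antibody replicate 2). Edn1 was called in 9 of 13 settings, the one reported included, Selp in 4 and Rbp7 in 2. No group was large enough for a test of single outlying sections.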

How the results depend on the processing

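Of 947 values of single genes under other settings, 791 counted as unchanged, 47 lost a call, 42 gained one, 58 changed sign and 9 moved otherwise. For tested values unchanged means the same direction and side of the threshold. Shares of spots with a UMI and tile correlations carry no threshold. They counted as unchanged where the shift was smaller than a measure of spread between sections. Causes were not tested, beyond settings that test fewer sections, genes or UMIs by construction. With the batch as a replicate block, edgeR called 3830 genes in whole sections (4 of the 9), 3631 per Pecam1 and Cdh5 UMI, 92 in leukocyte-rich spots and 4415 in the other spots (4 of the 9), and beside the values given in the text it changed no further call among the 9. A filter of 10 CPM left 821 whole-section calls (0 of the 9, Sele at an adjusted p of 0.0816 and Selp at 0.0566), 189 in leukocyte-rich spots, 0 in other spots (0 of the 9; edgeR, 3114 genes at an unadjusted p under 0.05), 7022 for leukocyte-rich over other per endothelial transcript, 0 interactions (0 of the 9; edgeR, 2171 unadjusted) and 96 at the edge. Under it Pecam1 stood at 0.087 and Cdh5 at 0.13 in whole sections, Pecam1 at 0.053 and Cdh5 at 0.14 in other spots, Icam1 at 0.045 in leukocyte-rich spots and at 0.026 at the edge. With no filter there were 1292 calls in leukocyte-rich spots (2 of the 9, Selp at -0.12), 331 interactions (3 of the 9) and 532 at the edge.

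DESeq2 called 4 of the 9 in whole sections, 2705 genes in other spots and 640 at the edge, with Selp at -0.013 in leukocyte-rich spots, and its size factors in edgeR left 60 interactions (0 of the 9). Library size alone gave 0.0095 for Pecam1 and 0.051 for Cdh5 in whole sections, 0.12 for Icam1 and 0.069 for Pecam1 in leukocyte-rich spots, and 0.058 for Cdh5 in other spots. It gave 0.014 for Selp in leukocyte-rich over other spots, 0.11 for Pecam1 in the interaction, and 0.072 for Icam1, 0.031 for Edn1 and 0.035 for Pecam1 at the edge. Sections thinned to an equal total left 1 of the 9 called. Without atrial-rich spots 1480 genes and 1 of the 9 were called (Cdh5 at 0.00075), and with Nppa left out of that definition 1 of the 9. The endothelial identity list as denominator gave 3669 calls.

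With leukocyte-rich spots at 5% there were 178 calls in them (2 of the 9), 2276 in other spots and 904 interactions (3 of the 9). Sele then stood at 0.11, Icam1 at 0.028 and Pecam1 at 0.028 in them, Vcam1 at -0.44 for leukocyte-rich over other, and Selp at -0.26 for it per endothelial transcript. At 20% there were 100 calls in them (0 of the 9, Selp at -0.30), 749 in other spots (0 of the 9, Cdh5 at 0.089) and 44 interactions, with Selp at 0.21 for leukocyte-rich over other and Sele at 0.085 for it per endothelial transcript. Spots thinned to 2000 UMIs left 2 calls in leukocyte-rich spots (0 of the 9; edgeR, 3064 genes at an unadjusted p under 0.05) and 114 interactions (2 of the 9), with Cdh5 at 0.0045 in other spots and Rbp7 at -0.044 in smooth-muscle-rich over other spots. Edge spots with their neighbours gave 12 calls (0 of the 9), with Icam1 at 0.0042 and Edn1 at 0.10. Without thinning, the share of spots with a UMI differed (antibody minus ICI alone) by -3.24 points for Edn1, -2.40 for Vwf and -11.4 for Cdh5, against 0.98, 2.16 and 0.78 points after thinning.

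Leaving out 1 section at a time gave 329 to 4479 calls in whole sections (0 to 4 of the 9), 1296 to 3830 per Pecam1 and Cdh5 UMI (2 to 5), 274 to 939 in leukocyte-rich spots (1 to 3) and 0 to 2979 in other spots (0 to 3). It gave 6329 to 7354 for leukocyte-rich over other (6 to 7), 7686 to 10491 for that per endothelial transcript (5 to 6), 0 to 2360 interactions (0 to 5), 711 to 1405 in smooth-muscle-rich spots (2 to 3) and 73 to 949 at the edge (1 to 2). A group left with 1 section is assumed to vary like the other. The log2 fold changes that changed sign in this way have these ranges. It ran from -0.50 to 0.014 for Vcam1, -0.015 to 0.75 for Edn1, -0.072 to 0.66 for Vwf and -0.23 to 0.12 for Cdh5 in whole sections. It ran from -0.53 to 0.18 for Vcam1 and -0.072 to 0.82 for Vwf per Pecam1 and Cdh5 UMI. It ran from -0.88 to 0.0022 for Sele, -0.50 to 0.18 for Selp and -0.30 to 0.12 for Pecam1 in leukocyte-rich spots. It ran from -0.24 to 0.50 for Edn1, -0.20 to 0.45 for Vwf and -0.29 to 0.20 for Cdh5 in the other spots. It ran from -0.034 to 0.28 for Vcam1 for leukocyte-rich over other spots. It ran from -0.43 to 0.70 for Selp for that ratio per Pecam1 and Cdh5 UMI. It ran from -0.0066 to 0.51 for Icam1 and -0.30 to 0.082 for Pecam1 for the interaction. It ran from -0.13 to 0.070 for Icam1 for edge over interior.

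Depth limits Rbp7 and Sele in leukocyte-rich spots, where antibody replicate 2 gave 3 and 11 UMIs.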
